A study of Mus musculus with 6 samples.

Results

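The mitochondrial ribosomal proteins are the nuclear-encoded proteins of the ribosome inside mitochondria. The genes were chosen by symbol, as those that begin with Mrpl or Mrps followed by a digit, after the Entrez gene IDs of the files had been matched to RefSeq symbols. Of 18822 genes with values, 78 were members, 49 with a large subunit symbol (Mrpl) and 29 with a small subunit symbol (Mrps). All 78 are protein coding. The annotation holds 84 symbols of this form, and the other 6 are pseudogenes, 0 of which had a value.

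Expression was measured by RNA sequencing of renal glomeruli, where the blood is filtered, in 3 libraries of PR3 knockout mice (PR3_KO) and 3 of WT mice. All were C57BL/6J mice with diabetic kidney disease. PR3 is proteinase 3, which Prtn3 encodes and neutrophils store in their granules, and the design asks what its loss changes in the diabetic glomerulus. The labels do not give the way diabetes was brought about, the kind of knockout allele, the age or sex, or whether each library is a separate animal. The p-values therefore rest on the spread of these samples alone, and that spread may be technical.

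Mitochondria keep their own ribosome, which translates the few proteins encoded by mitochondrial DNA. Those proteins are core parts of the respiratory chain and ATP synthase. All protein subunits of this ribosome are encoded in the nucleus, made in the cytosol and imported. The large subunit joins amino acids and releases the chain at the inner membrane, and the small subunit reads the messenger RNA. In the kidney, the cells of the proximal tubule are particularly rich in mitochondria.

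Values are FPKM, fragments scaled to transcript length and to the mapped fragments of the library, as the authors gave them. A fold change is the difference of mean log2(FPKM + 1), PR3_KO minus WT, with limma's moderated standard error (SE). A gene was said to rise or fall where limma's p was under 0.05 after Benjamini-Hochberg adjustment over the 12388 genes that averaged 1 FPKM or more. Means carry the SD over 3 libraries per genotype. The depth is not given. The commonest value above 0 among 53 olfactory receptor genes, 0.07 FPKM in 5 libraries and 0.08 FPKM in the other, would put it near 15200000 and 13300000 fragments if that value is 1 fragment. Each such value was shared by only 3 to 7 genes. For Prtn3 (GRCm38.p6, chromosome 10, 79879667 to 79883174) the files list 0.14, 0 and 0.07 FPKM for PR3_KO 1, 2 and 3, against 0.46, 0.21 and 0.22 FPKM in WT 1, 2 and 3 (two-sided exact permutation test, p = 0.1, which is as low as 3 against 3 can reach). At such levels the check of the labels is weak. Markers of the labelled tissue were present, as 12 of 12 podocyte and 13 of 13 glomerular endothelium genes passed the filter. Proximal tubule markers were present as well, at a summed 57189 to 75130 FPKM in PR3_KO and 11292 to 28575 FPKM in WT. A large part of these sums was 1 gene, Kap, at 40546 to 57590 FPKM in PR3_KO and 5248 to 18509 FPKM in WT.

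All 78 members were above 0 in all 6 libraries, and all passed the filter. Member values ran between 3.66 and 307 FPKM. The median member averaged 44.5 FPKM over the libraries, against 10.9 FPKM for the median tested gene. FPKM is per length, so levels can be set between members, and the most abundant was 56.9 times the least abundant. Mrps21, a small subunit protein with a bacterial counterpart, had 307.01, 272.15 and 261.32 FPKM in PR3_KO, against 260.26, 184.92 and 270.63 FPKM in WT. Mrpl12, of the mobile stalk that recruits translation factors and a known partner of the mitochondrial RNA polymerase, had 248.21, 195.02 and 218.96 FPKM in PR3_KO, against 189.67, 122.86 and 208.67 FPKM in WT. Mrpl42 had 204.04, 198.04 and 185.26 FPKM in PR3_KO, against 197.07, 155.37 and 225.54 FPKM in WT. These 3 abundant genes had WT 2 as their lowest library, their groups overlapped, and 0 of them passed the test (limma adjusted p = 0.247, 0.162 and 0.844). The 2 subunits were expressed at like levels, with a median of 45.2 FPKM over the Mrpl genes and 42.9 FPKM over the Mrps genes.

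Most members were slightly higher in PR3_KO, while most other genes were lower. The log2 fold change was above 0 for 62 members and below 0 for 16, with a median of 0.17, against a median of -0.26 over all tested genes. Of the 78, 15 rose and 0 fell (limma, adjusted p under 0.05), where 11.7% of all tested genes rose and 41.1% fell. Adjusted or not, 0 members fell at p under 0.05, and 22 passed that mark before adjustment. The 2 genotypes were free of overlap in 27 members that were higher and 2 that were lower in PR3_KO, against 16.0% and 49.1% of all tested genes. The 2 that were lower were Mrpl15, at 10.6 ± 0.44 FPKM in PR3_KO and 12.1 ± 1.31 FPKM in WT, and Mrps6, at 54.9 ± 6.26 FPKM in PR3_KO and 61.5 ± 1.17 FPKM in WT, neither past the test (limma adjusted p = 0.186 and 0.235). The changes were small: 0 members reached an absolute log2 fold change of 1, which 1430 of the tested genes did. Leaving out PR3_KO 1 left 4 members that rose and leaving out PR3_KO 3 left 5, or 5.13% and 6.41% of the members, below the 7.35% and 7.51% of all genes that then rose. Leaving out PR3_KO 2 left 9, beside 8.82% of all genes. Without WT 2, 10 members rose and 4 fell, beside 10.5% and 36.3% of all genes. Without WT 2 and PR3_KO 3 together 5 rose and 2 fell, where 8.20% and 31.9% of all genes did. In bulk tissue, a change in the number of cells of a type and a change in RNA per cell cannot be told apart.

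**Figure D1:**
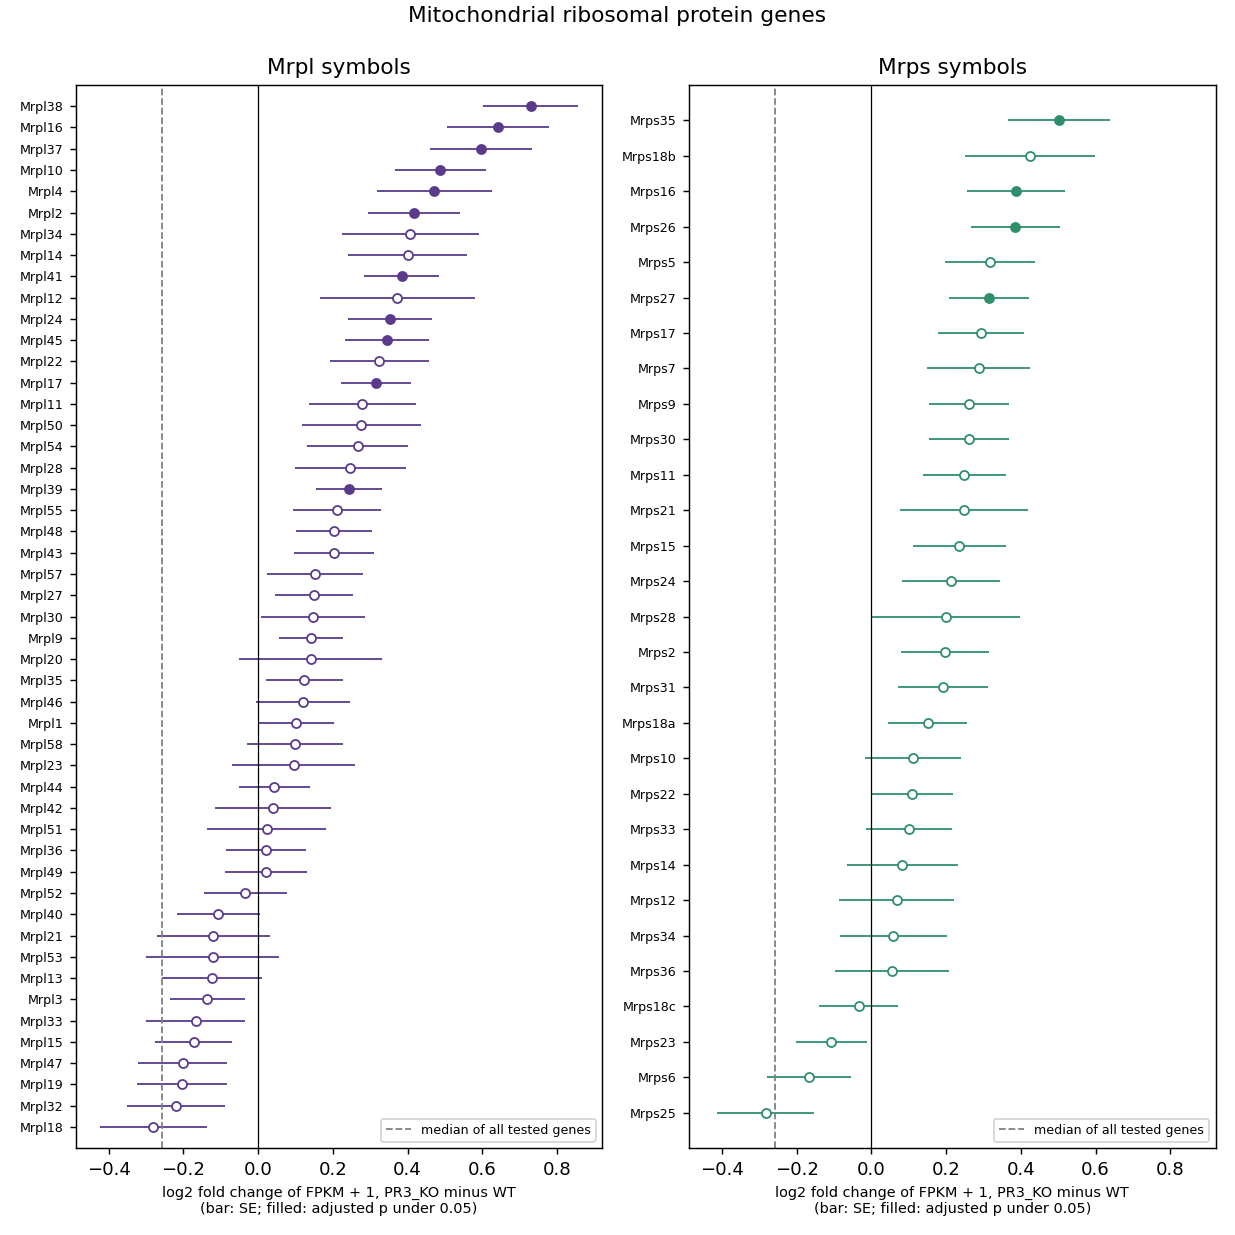
Log2 fold change of FPKM + 1 (PR3_KO minus WT, x axis) with its SE for each of the 49 Mrpl and 29 Mrps genes (y axis), filled where the adjusted p was under 0.05. The 15 filled points all lie right of 0, and the dashed line marks the median of all 12388 tested genes at -0.26.

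The direction of the whole set depends on how the libraries are put on a common scale. FPKM can move down for most genes of a library when a few transcripts take a larger share of its fragments. With median-of-ratios scaling, which sets the typical gene level between libraries, the median of all genes was near 0 (-0.001), the members' median was 0.46, and 45 members rose and 0 fell (23.8% and 23.7% of all genes). With FPKM brought to equal library sums, as in TPM, the members' median was 0.02, with 5 members that rose and 8 that fell (7.23% and 51.0% of all genes). The 5 were Mrpl38, Mrpl16, Mrpl37, Mrpl10 and Mrps35. Relative to the median of all genes, the members' median was higher by 0.43 as deposited.

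**Figure D2:**
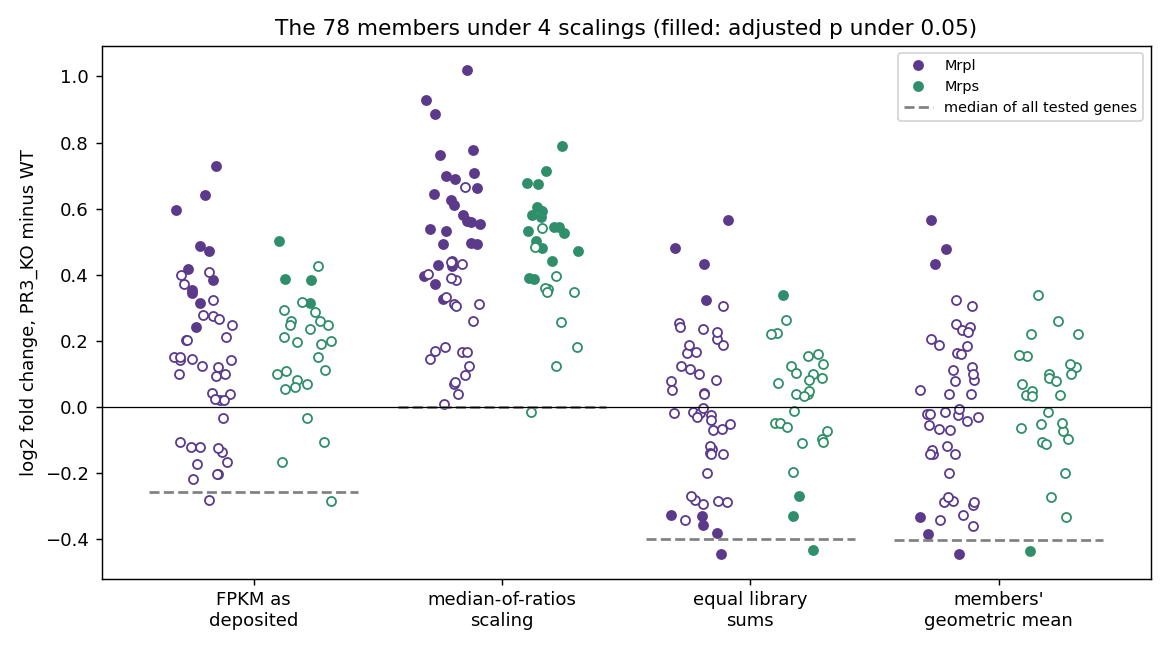
Log2 fold change of each of the 78 members (y axis, PR3_KO minus WT) under 4 ways of scaling the libraries (x axis), filled where the adjusted p was under 0.05, with the median of all tested genes as a dashed line. The centre of the points moves with the scale, at a median of 0.17 as deposited, 0.46 with median-of-ratios scaling, 0.02 with equal library sums and 0.01 relative to the members.

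Members also differed among themselves, with an SD of 0.22 over their 78 log2 fold changes as deposited. Setting each library to the geometric mean FPKM of the 78 members, an alternative chosen after the values were seen, asks which members differ from the rest of the set. Under it, 3 members rose and 4 fell (6.64% and 40.7% of all genes). The 3 that rose were Mrpl38, Mrpl16 and Mrpl37, the 3 with the largest fold changes as deposited. This scaling shifts all members by nearly the same amount, so their order was bound to be kept. These 3 genes passed the test in the same direction in all 18 settings tried, the main one included.

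Mrpl38 (chromosome 11, 116131817 to 116138868, minus strand) encodes a protein found in mitochondrial but not bacterial ribosomes, placed in the central protuberance of the large subunit. It had 75.36, 62.36 and 67.85 FPKM in PR3_KO, against 43.07, 35.18 and 44.81 FPKM in WT. All PR3_KO libraries lay above all WT libraries, with means of 68.5 ± 6.53 FPKM in PR3_KO and 41.0 ± 5.13 FPKM in WT. Limma gave a log2 fold change of 0.73 (SE 0.13, adjusted p = 0.00289), and 0.57 relative to the members (SE 0.12, limma adjusted p = 0.00511).

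Mrpl16 (chromosome 19, 11770415 to 11774956, plus strand) is the counterpart of a bacterial protein next to the site where transfer RNA is accepted. It had 44.02, 38.30 and 39.43 FPKM in PR3_KO, against 28.04, 20.83 and 28.71 FPKM in WT. The groups did not overlap, and WT 2 was the lowest library. Limma's log2 fold change was 0.64 (SE 0.14, adjusted p = 0.00646), and 0.48 relative to the members (limma adjusted p = 0.0146).

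Mrpl37 (chromosome 4, 107055874 to 107066866, minus strand), a mitochondria-specific protein of the large subunit, had 61.42, 54.94 and 56.00 FPKM in PR3_KO, against 38.79, 31.20 and 43.95 FPKM in WT. The groups again did not overlap. Its log2 fold change by limma was 0.60 (SE 0.14, adjusted p = 0.00834), and 0.43 relative to the members (limma adjusted p = 0.0177).

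The 4 that fell relative to the members were Mrpl18, Mrpl32, Mrpl33 and Mrps25, described here because of that result. Mrpl18 (chromosome 17, 12911345 to 12917787, minus strand) is, like Mrpl38, a protein of the central protuberance, and has a bacterial counterpart. It had 50.37, 40.66 and 47.14 FPKM in PR3_KO, against 61.67, 46.35 and 61.29 FPKM in WT. As deposited the groups overlapped and the test was not passed (limma log2 fold change -0.28 with an SE of 0.14, adjusted p = 0.129), and relative to the members it was at -0.45 (SE 0.13, limma adjusted p = 0.0182). Mrps25 (chromosome 6, 92169512 to 92184023, minus strand), a mitochondria-specific small subunit protein, had 8.83, 10.35 and 8.53 FPKM in PR3_KO, against 11.13, 9.95 and 13.41 FPKM in WT. The groups overlapped through PR3_KO 2 and WT 2 (-0.28 as deposited, limma adjusted p = 0.0979, and -0.43 relative to the members, limma adjusted p = 0.0489). Mrpl32 and Mrpl33, large subunit proteins with bacterial counterparts, were at -0.38 and -0.33 relative to the members (limma adjusted p = 0.0336 and 0.0451). With equal library sums these 4 fell as well (limma adjusted p = 0.0170 to 0.0324), as did Mrpl15, Mrpl47, Mrps6 and Mrps23. That scaling moves the fold changes by nearly the same amount as scaling to the members (-0.444 and -0.446 for Mrpl18). It is therefore no separate check. With median-of-ratios scaling the 4 genes had log2 fold changes between -0.01 and 0.12, and 0 of them passed.

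**Figure D3:**
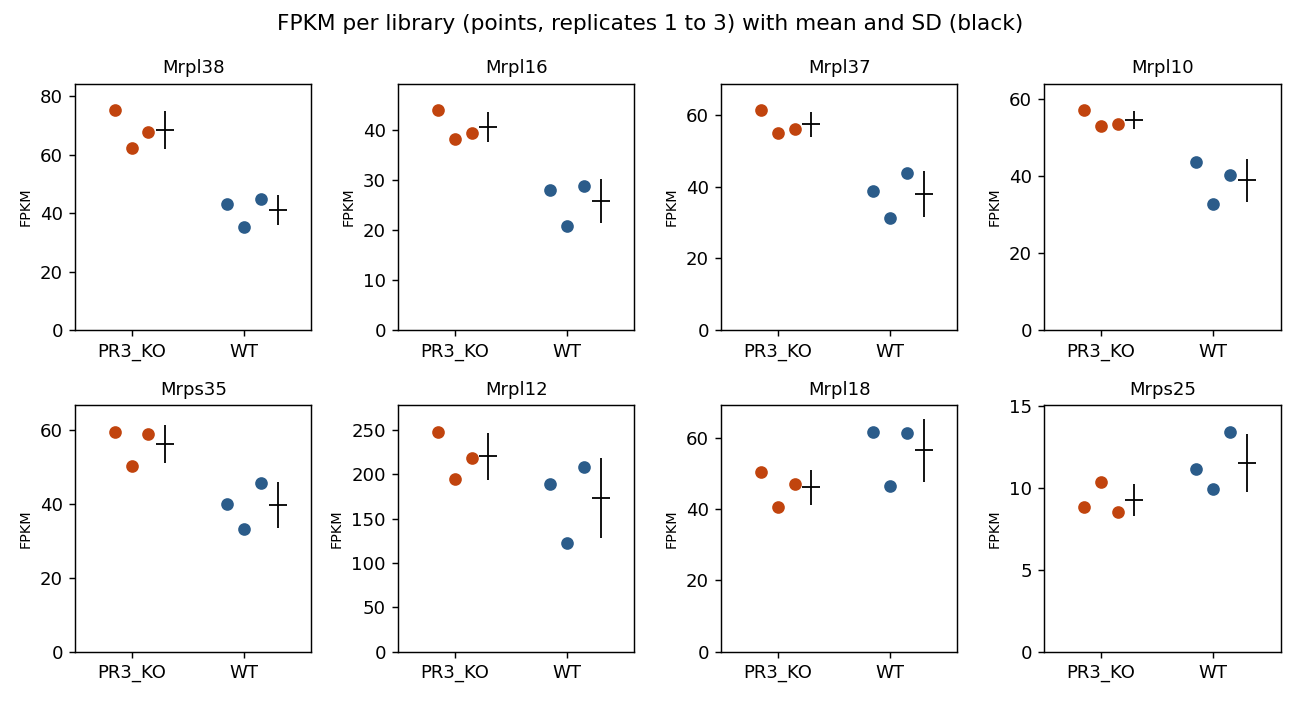
FPKM (y axis, from 0) in each library of PR3_KO and WT for 8 members, with the mean and SD of each genotype in black. Mrpl38, Mrpl16, Mrpl37, Mrpl10 and Mrps35 show no overlap between genotypes, while Mrpl12, Mrpl18 and Mrps25 overlap.

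Promoter windows were available for 69 members, in RefSeq's table for GRCm38.p6, each from 250 bases before to 50 bases after an annotated start. Of the members at the edges of the set that have a window, Mrpl16 and Mrpl37, which rose, are shown. Also shown are Mrpl18 and Mrpl32, the lowest large subunit genes relative to the members. Mrpl33 and Mrps25 have a window too, which is not shown. Capitals mark the 3 motifs searched on both strands, GCGCATG (the core bound by NRF1), CCGGAAG (the core bound by ETS factors such as GABP) and AAGATGG (the core bound by YY1). These factors are known regulators of genes for mitochondrial proteins.
Mrpl16 promoter, chr19:11770165-11770464, plus strand: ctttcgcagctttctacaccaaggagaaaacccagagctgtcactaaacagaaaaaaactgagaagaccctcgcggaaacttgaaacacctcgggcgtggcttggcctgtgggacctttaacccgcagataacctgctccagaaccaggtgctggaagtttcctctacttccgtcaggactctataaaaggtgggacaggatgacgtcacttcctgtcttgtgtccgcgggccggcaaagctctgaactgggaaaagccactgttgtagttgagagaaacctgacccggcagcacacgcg
Mrpl37 promoter, chr4:107066817-107067116, minus strand: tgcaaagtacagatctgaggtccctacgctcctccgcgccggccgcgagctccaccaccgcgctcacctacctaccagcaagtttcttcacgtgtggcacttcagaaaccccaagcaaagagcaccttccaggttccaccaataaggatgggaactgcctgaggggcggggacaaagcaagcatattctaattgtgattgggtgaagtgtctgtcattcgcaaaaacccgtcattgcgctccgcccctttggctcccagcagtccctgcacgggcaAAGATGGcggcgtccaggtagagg
Mrpl18 promoter, chr17:12916042-12916341, minus strand: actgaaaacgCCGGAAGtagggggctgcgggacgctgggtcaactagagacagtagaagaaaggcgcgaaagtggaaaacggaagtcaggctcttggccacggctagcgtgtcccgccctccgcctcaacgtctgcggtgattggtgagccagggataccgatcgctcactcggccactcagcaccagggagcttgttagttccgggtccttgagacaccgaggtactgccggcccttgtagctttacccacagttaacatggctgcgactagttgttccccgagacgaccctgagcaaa
Mrpl32 promoter, chr13:14612988-14613287, minus strand: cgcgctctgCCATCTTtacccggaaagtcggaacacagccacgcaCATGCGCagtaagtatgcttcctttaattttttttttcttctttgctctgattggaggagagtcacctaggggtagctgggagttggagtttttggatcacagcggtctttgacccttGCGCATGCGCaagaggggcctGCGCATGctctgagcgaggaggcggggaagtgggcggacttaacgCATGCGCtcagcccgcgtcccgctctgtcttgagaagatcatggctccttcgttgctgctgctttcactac

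The Mrpl16 window held 0 of the 3 motifs. The Mrpl37 window held the YY1 motif 27 bases after the start, and the Mrpl18 window held the ETS motif at position -240. The Mrpl18 window belongs to an annotated start that lies inside the gene span given above and not at its outer end, unlike the other 3. The Mrpl32 window held the NRF1 motif at 5 places, of which 2 overlap on opposite strands at positions -87 and -84, and the YY1 motif at -241. Of the windows not shown, that of Mrpl33 held the NRF1 motif at -12 and the ETS motif at -3. That of Mrps25 held 0 of the 3 motifs. Over the members with a window, 37.7% held the ETS motif, 18.8% the YY1 motif and 11.6% the NRF1 motif in at least 1 window. Over 9940 tested genes with a window these shares were 19.7%, 8.33% and 7.59%, and over the 27025 genes with any window they were 9.93%, 7.28% and 4.41%. The median log2 fold change was 0.13 for members with the ETS motif and 0.21 for those without it. For the NRF1 motif, held by 8 members, these medians were 0.28 and 0.15, and for the YY1 motif 0.12 and 0.19. The ETS motif was in 4 of 12 members that rose and in 22 of 57 that were not called. The NRF1 motif was in 3 of the 12 and 5 of the 57, and the YY1 motif in 2 and 11. A match is a match of letters only.

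Transcripts of NRF1, YY1 and both GABP subunits fell in PR3_KO. Of 9 regulators of mitochondrial gene expression tested, 5 fell and 0 rose, or 55.6% that fell beside 41.1% of all genes. Their median log2 fold change was -0.50, against -0.26 over all genes. The 4 that did not pass were Pprc1 (-0.37), Ppargc1a (-0.16), Ppargc1b (-0.09) and Esrra (0.06). Yy1 had 15.43, 16.03 and 16.41 FPKM in PR3_KO, against 23.50, 23.76 and 21.62 FPKM in WT (limma log2 fold change -0.50 with an SE of 0.09, adjusted p = 0.00285). Gabpb1, a subunit of GABP, had 6.20, 6.50 and 6.82 FPKM in PR3_KO, against 9.73, 9.94 and 9.62 FPKM in WT (limma log2 fold change -0.52 with an SE of 0.09, adjusted p = 0.00289). Under median-of-ratios scaling 3 of the 9 fell, beside 23.7% of all genes, with Gabpb1 at -0.26 (limma adjusted p = 0.0332) and Yy1 past the threshold no longer, at -0.22 (limma adjusted p = 0.0564). Gabpa, Nrf1 and Myc also fell as deposited (-0.63, -0.54 and -0.62), and Nrf1 did not pass with median-of-ratios scaling (limma adjusted p = 0.0753). Of the 9, those other than Yy1 and Gabpb1 are named after their values were seen.

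The subunits were close in their median change. Of the 49 Mrpl genes, 11 rose and 0 fell, with a median log2 fold change of 0.15. Of the 29 Mrps genes, 4 rose and 0 fell, with a median of 0.20. The share that rose was 22.4% of the Mrpl genes and 13.8% of the Mrps genes, the second of these near the 11.7% of all genes. Under median-of-ratios scaling 27 Mrpl and 18 Mrps genes rose (55.1% and 62.1%), beside 23.8% of all genes. With equal library sums the medians were -0.02 for Mrpl and 0.04 for Mrps, so the sign of the Mrpl median depends on the scale. Leaving out PR3_KO 1, 2 or 3 left 4, 6 or 5 Mrpl genes that rose and 0, 3 or 0 Mrps genes. The shares of all genes that then rose were 7.35%, 8.82% and 7.51%. Of the Mrps genes, 2 rose without WT 2 and 7 without WT 3, beside 10.5% and 9.95% of all genes. The mean log2(FPKM + 1) of the Mrpl genes exceeded that of the Mrps genes by 0.052, 0.065 and 0.036 in PR3_KO 1, 2 and 3, against 0.072, 0.073 and 0.066 in WT 1, 2 and 3. By symbol the genotypes did not overlap in this difference, by a margin of 0.001. The symbol does not always give the subunit, since structures of the mammalian mitochondrial ribosome place the products of Mrps30 and Mrps18a in the large subunit and Mrps36 is known as a part of the oxoglutarate dehydrogenase complex. With these 3 placed by structure, the difference was 0.101, 0.127 and 0.081 in PR3_KO, against 0.126, 0.128 and 0.114 in WT, and the genotypes overlapped. By structure 11 of 51 large subunit genes and 4 of 26 small subunit genes rose.

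Among the other large subunit members that rose, Mrpl10 anchors the stalk on the ribosome. It had 57.10, 52.98 and 53.40 FPKM in PR3_KO, against 43.57, 32.79 and 40.10 FPKM in WT (limma log2 fold change 0.49 with an SE of 0.12, adjusted p = 0.0121). It kept its call in 17 of the 18 settings, and relative to the members it was at 0.32 (limma adjusted p = 0.0623). Its stalk partners Mrpl11 and Mrpl12 were at 0.28 and 0.37, with overlapping groups, and did not pass (limma adjusted p = 0.133 and 0.162). Mrpl41, a mitochondria-specific protein, had 20.20, 18 and 17.91 FPKM in PR3_KO, against 14.86, 12.75 and 14.71 FPKM in WT (limma log2 fold change 0.38 with an SE of 0.10, adjusted p = 0.0143). It kept its call in 14 of the 18 settings and lost it without PR3_KO 1 (0.33, limma adjusted p = 0.0542) and with equal library sums (0.23, limma adjusted p = 0.0793). The remaining large subunit genes that rose were Mrpl4, Mrpl2, Mrpl24, Mrpl45, Mrpl17 and Mrpl39, at log2 fold changes between 0.24 and 0.47. They kept the call in 5 to 13 of the 18 settings, and 0 of the 6 kept it with equal library sums (limma adjusted p = 0.0689 to 0.467). Mrpl4 and Mrpl24 line the tunnel through which the new chain leaves, and Mrpl45 is known to tether the ribosome to the inner membrane. Mrpl39, which resembles a transfer RNA synthetase, was the weakest call of the 15 (0.24, limma adjusted p = 0.0499).

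Other large subunit genes with a known role did not pass. Mrpl44, which resembles an RNA-cutting enzyme, had 26.36, 25.64 and 24.16 FPKM in PR3_KO, against 26.84, 23.33 and 23.74 FPKM in WT (log2 fold change 0.04, limma adjusted p = 0.712). Mrpl58, a release factor homologue built into the ribosome, had 79.58, 65.73 and 71.02 FPKM in PR3_KO, against 62.86, 62.24 and 77.12 FPKM in WT (limma adjusted p = 0.532). Mrpl52 was at 120 ± 8.19 FPKM in PR3_KO and 123 ± 5.47 FPKM in WT (limma adjusted p = 0.803). The groups overlapped in all 3.

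Of the small subunit, Mrps35 had 59.48, 50.20 and 58.93 FPKM in PR3_KO, against 39.90, 33.25 and 45.61 FPKM in WT (limma log2 fold change 0.50 with an SE of 0.14, adjusted p = 0.0168). It is a mitochondria-specific protein, and the only Mrps gene that kept its call with equal library sums (0.34, limma adjusted p = 0.0405). The call was lost without PR3_KO 1 and without PR3_KO 3 (limma adjusted p = 0.0589 and 0.06). Mrps16, with a bacterial counterpart, had 73.97, 60.98 and 70.28 FPKM in PR3_KO, against 54.48, 44.50 and 57.63 FPKM in WT (limma log2 fold change 0.39 with an SE of 0.13, adjusted p = 0.0387). The mitochondria-specific genes Mrps26 and Mrps27 rose by 0.38 and 0.32 (limma adjusted p = 0.0277 and 0.0393). Mrps26, Mrps16 and Mrps27 lost their calls without PR3_KO 1 (limma adjusted p = 0.0762, 0.124 and 0.0922) and without PR3_KO 3 (0.0956, 0.11 and 0.122), and Mrps16 also without WT 1 and without WT 2 (0.0555 and 0.0707). Mrps27 lost its call too without PR3_KO 2, WT 2 or WT 3 (limma adjusted p = 0.0672, 0.0955 and 0.0751).

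The decoding protein Mrps12 had 62.82, 54.58 and 59.72 FPKM in PR3_KO, against 59.83, 44.70 and 66.31 FPKM in WT, with overlapping groups (limma adjusted p = 0.723). Mrps22 and Mrps34, in which human variants cause mitochondrial disease, had log2 differences of 0.11 and 0.06, short of the threshold (limma adjusted p = 0.421 and 0.741). The 3 paralogs of the Mrps18 family, of which a bacterium has a single counterpart, were at 0.42 for Mrps18b, 0.15 for Mrps18a and -0.03 for Mrps18c, and 0 of the 3 passed (limma adjusted p = 0.0709, 0.256 and 0.795). Mrps18b had 52.65, 45.74 and 56.25 FPKM in PR3_KO, against 39.16, 29.40 and 47.60 FPKM in WT, so that WT 3 lay above PR3_KO 2. Mrps30 was at 24.1 ± 1.46 FPKM in PR3_KO and 20.0 ± 2.13 FPKM in WT (0.26, limma adjusted p = 0.0684), without overlap. Mrps36 was at 88.1 ± 4.77 FPKM in PR3_KO and 85.7 ± 16.2 FPKM in WT (0.06, limma adjusted p = 0.773).

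The mitochondrial ribosome joins proteins inherited from bacteria with others found only in mitochondria. Of 46 members with a bacterial counterpart 7 rose, with a median log2 fold change of 0.20. Of 31 mitochondria-specific members 8 rose, with a median of 0.15. The share that rose was 15.2% in the first class and 25.8% in the second, beside 11.7% of all genes, and in neither did a gene fall. Under median-of-ratios scaling 25 and 20 rose and 0 fell, beside 23.8% and 23.7% of all genes. With equal library sums 2 rose and 6 fell in the first class and 3 rose and 2 fell in the second, beside 7.23% and 51.0% of all genes.

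WT 2 was the lowest library for 65 of the 78 members. PR3_KO 1 was the highest for 43, WT 3 for 19 and PR3_KO 3 for 9. Summed over the members, FPKM came to 4535, 4047 and 4116 in PR3_KO 1, 2 and 3, against 3859, 3157 and 4186 in WT 1, 2 and 3. WT 3 lay above PR3_KO 2 and PR3_KO 3, so the sums overlapped. In the proximal tubule markers PR3_KO 1 was also the highest library and WT 2 the lowest, with a mean log2(FPKM + 1) of 9.03, 8.92 and 9.02 in PR3_KO, against 8.33, 7.60 and 8.03 in WT. Of the 22 proximal tubule markers 18 rose and 0 fell, beside 11.7% of all genes that rose. With median-of-ratios scaling 21 rose and with equal library sums 16, beside 23.8% and 7.23% of all genes. Among markers of other cells 13 of 13 of the glomerular endothelium and 10 of 10 of macrophages fell, as deposited and under the scalings by median of ratios and by equal library sums, beside 41.1% of all genes that fell as deposited. Of podocyte markers 7 of 12 fell, of mesangium and smooth muscle 5 of 8 and of the later tubule segments 5 of 10. Under median-of-ratios scaling these became 4, 3 and 1, beside 23.7% of all genes. In all these lists 0 markers were at 0 in all libraries. The summed FPKM of the macrophage markers was 40.4 to 88.4 in PR3_KO and 366 to 824 in WT. The part of these cell types in the members' values was not tested.

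**Figure D4:**
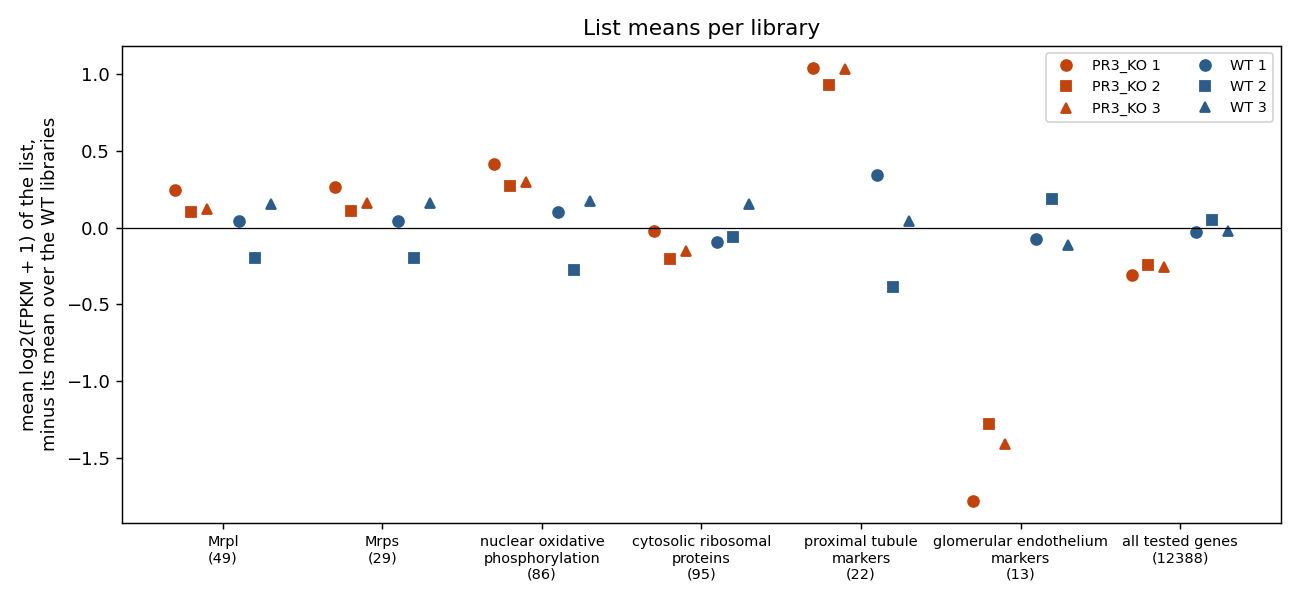
Mean log2(FPKM + 1) of each gene list per library, minus the list's mean over the 3 WT libraries (y axis), for the lists on the x axis with their number of tested genes. In both subunit lists PR3_KO 1 is the highest library, WT 2 the lowest and WT 3 level with the other PR3_KO libraries, while proximal tubule markers lie higher in all PR3_KO libraries and endothelial markers lower.

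By median log2 fold change the members lay between the nuclear genes of oxidative phosphorylation and the cytosolic ribosomal proteins. Of 86 tested nuclear subunits of the respiratory complexes and ATP synthase, 32 rose and 0 fell (37.2% that rose, beside 11.7% of all genes), with a median log2 fold change of 0.33. These became 49 and 0 under median-of-ratios scaling (57.0% that rose, beside 23.8% of all genes that rose and 23.7% that fell). With equal library sums they were 22 and 2 (25.6% and 2.33%, beside 7.23% and 51.0% of all genes). The cytosolic list was taken by the start of the symbol, Rpl or Rps. It can therefore also hold genes that are not ribosomal proteins, such as the Rps6ka kinases. Of 95 tested genes on this list, 4 rose and 22 fell (4.21% and 23.2%, beside 11.7% and 41.1% of all genes). Their median was -0.18, which turned to 0.12 under median-of-ratios scaling. In that scaling 8 rose and 6 fell (8.42% and 6.32%, beside 23.8% and 23.7% of all genes). With equal library sums 3 rose and 55 fell (3.16% and 57.9%, beside 7.23% and 51.0% of all genes), with a median of -0.35. Relative to the oxidative phosphorylation genes the members' mean log2(FPKM + 1) was -2.54, -2.54 and -2.53 in PR3_KO, against -2.44, -2.30 and -2.39 in WT. Relative to the cytosolic list it was -2.35, -2.31 and -2.33 in PR3_KO, against -2.48, -2.76 and -2.62 in WT. These 2 differences do not depend on the library scale, beyond the added pseudocount, and in both the genotypes did not overlap. They were lower in PR3_KO against oxidative phosphorylation and higher against the cytosolic list.

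Other genes of mitochondrial translation were counted by function. Among the translation factors, the charging enzymes and the assembly genes, the share that rose as deposited was 20.0%, 27.3% and 20.0%, beside 11.7% of all genes. Under median-of-ratios scaling 9 of 15, 11 of 22 and 11 of 25 rose and 0 fell, beside 23.8% of all genes that rose. With equal library sums 2, 3 and 1 rose and 2, 3 and 3 fell, beside 7.23% and 51.0% of all genes. Of 5 ribosomal subunits under other names 1 rose, and 0 did so with equal library sums. This was Dap3, the GTP-binding protein of the small subunit, with 57.16, 46.33 and 44.60 FPKM in PR3_KO, against 39.94, 33.07 and 35.90 FPKM in WT (limma log2 fold change 0.43 with an SE of 0.13, adjusted p = 0.0230), and 0.27 with equal library sums (limma adjusted p = 0.0789). Gadd45gip1, of the large subunit, was at 0.39 (limma adjusted p = 0.0852). Of 15 translation factors and partners 3 rose and 1 fell, with a median of 0.22. Oxa1l, which inserts new chains into the inner membrane, rose by 0.43 (SE 0.09, limma adjusted p = 0.00681). The initiation factor gene Mtif2 had 8.85, 8.99 and 9.23 FPKM in PR3_KO, against 12.07, 11.52 and 11.84 FPKM in WT, and fell (-0.35, SE 0.09, limma adjusted p = 0.0105). Mtif2 was at -0.09 and not called (limma adjusted p = 0.434) under median-of-ratios scaling.

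Of 22 genes that charge mitochondrial transfer RNAs, 6 rose and 1 fell, with a median of 0.22. Gatb, a subunit of the enzyme that makes glutamine-charged transfer RNA, had 39.40, 34.29 and 34.43 FPKM in PR3_KO, against 19.98, 14.23 and 18.91 FPKM in WT. This was a log2 fold change of 0.996 (SE 0.14, limma adjusted p = 0.00128), larger than that of any member, and 0.84 with equal library sums (limma adjusted p = 0.00116). Qrsl1, another subunit of that enzyme, named after its value was seen, fell (-0.32, limma adjusted p = 0.0470), but was at -0.07 under median-of-ratios scaling, without a call (limma adjusted p = 0.648). The valyl synthetase gene Vars2 rose by 0.48 (limma adjusted p = 0.00705). Of 25 assembly and RNA modification genes 5 rose and 1 fell, with a median of 0.09, or -0.04 with equal library sums. Mtg1, a GTPase that acts on the maturing large subunit, had 16.42, 16.36 and 17.20 FPKM in PR3_KO, against 9.40, 7.15 and 10.40 FPKM in WT (limma log2 fold change 0.84 with an SE of 0.13, adjusted p = 0.00200). Lyrm4, listed with them and known for iron-sulphur cluster assembly, rose by 0.48 (limma adjusted p = 0.0208), and was at 0.32 with equal library sums (limma adjusted p = 0.0604). Of 12 tested genes of mitochondrial transcription and DNA maintenance 0 rose and 2 fell. The share that fell was 16.7%, below the 41.1% of all genes, of which 11.7% rose. The 2 were Mgme1 and Mterf2 (-0.38 and -0.46, limma adjusted p = 0.0129 and 0.0194). Neither passed the threshold under median-of-ratios scaling (limma adjusted p = 0.293 and 0.166).

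The members are spread over 17 chromosomes, with 11 on chromosome 11 and 8 on chromosome 17. Mrpl54 lies on chromosome 10, 1381548 bases beyond the end of Prtn3, and was at a log2 fold change of 0.27 (limma adjusted p = 0.124). In the GENCODE annotation of GRCm38, 20 members have a gene on the opposite strand that starts within 1000 bases upstream. Of 17 such neighbours tested, 2 rose and 2 fell, beside 11.7% and 41.1% of all genes, and their median log2 fold change was -0.08, against 0.27 for the members they adjoin. Cyb5rl starts 120 bases from Mrpl37 and was at -0.20 (limma adjusted p = 0.270), against 0.60 for Mrpl37. Mitd1 starts 66 bases from Mrpl30 and fell (-0.82, limma adjusted p = 0.0129), while Mrpl30 was at 0.15 (limma adjusted p = 0.396). Hira starts 175 bases from Mrpl40 and also fell (-0.54, limma adjusted p = 0.0037), with Mrpl40 at -0.11. The neighbours that rose were Lrrc46 beside Mrpl10 and Pnpla7 beside Mrpl41 (0.74 and 0.47, limma adjusted p = 0.0044 and 0.0372). Lrrc46 was near the floor, at a mean of 1.52 FPKM in PR3_KO and 0.51 FPKM in WT. It passed the filter of 1 FPKM only through PR3_KO, so its call carries little weight. These neighbours, and Mrpl15, Mrps6, Mrpl30, Mrpl40 and Mrpl54, are named after their values were seen. Exons of 33 members overlap those of another gene, 23 of them those of a protein-coding gene, and the use of strand in counting is not given, so that reads could be shared. The values of these members are uncertain to that extent. Among them are Mrps25, over 3533 bases of an exon of Nr2c2, Mrpl18, over 124 bases of Tcp1, and Mrpl10, Mrpl12, Mrpl24, Mrpl33, Mrpl44, Mrpl58, Mrps18b, Mrps18c, Mrps26, Mrps27, Mrps30 and Mrps34. On the same strand, where strand use could not part the reads, Mrps6 overlaps 159 bases of Slc5a3, which fell (-0.59, limma adjusted p = 0.0066). Mrps34 so overlaps 289 bases of Nme3, which rose (0.41, limma adjusted p = 0.0188). Mrps24 so overlaps 226 bases of Urgcp, which was not called (0.13, limma adjusted p = 0.2944). These same-strand partners are named after their values were seen. Mrpl38, Mrpl16, Mrpl37 and Mrps35 have no such overlap. Pseudogene copies of Mrpl23, Mrpl27, Mrpl48 and Mrps36 are annotated, so the values of these members are uncertain where reads fit more than 1 place.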

How the data were processed

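RNA sequencing libraries of glomeruli from 3 PR3_KO and 3 WT mice with diabetic kidney disease were analysed. Per the labels' protocols, total RNA from Trizol was enriched for polyadenylated transcripts on oligo(dT) beads, and DNBSEQ was the sequencing platform. Per the submitters' processing notes, Bowtie2 and the build GRCm38.p6 were used. No source used here gives the quantification tool, annotation, strand use or filters. The deposited values are FPKM per the file headers, which the authors gave to 2 decimals and without counts, so no counting intervals were formed.

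Each file listed 22064 Entrez IDs, of which 3242 were empty in all files and 18822 had values. RefSeq symbols were found for 18770 of these. Limma 3.58.1 (R 4.3.3, statmod 1.5.0) was run on log2(FPKM + 1) for the 12388 genes averaging 1 FPKM or more, in a model of genotype alone with an intensity trend and robust moderation. P-values were adjusted over all tested genes. The script was tested on simulated data. Tables and plots came from matplotlib 3.10.9, numpy 2.4.6 and pandas 2.3.3 under Python 3.11.15.

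Members, lists, roles and alternatives were chosen with earlier results of these data known. The genes named were the members with the 4 largest rises and 4 largest falls per subunit past the threshold and without overlap, the 3 most abundant per subunit, 15 with a known role, and 2 per list by adjusted p. Members counted as high or low relative to the set, and others so marked, were named after their values were seen. Alternatives were other pseudocounts (0.1, 0.5 and 5), no filter or a mean of at least 5 FPKM, 2 scalings, no trend, the replicate number as a block, and each library left out. Added after the values were seen were scaling to the members and leaving out WT 2 and PR3_KO 3 together.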

Additional observations from a re-analysis of the deposited data

How the results depend on the processing

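Mrpl38, Mrpl16 and Mrpl37 kept direction and call in the 18 settings run, with log2 fold changes of 0.57 to 1.02, 0.48 to 0.93 and 0.43 to 0.89. Over the 24 named members and all alternatives, 337 values kept direction and call, 32 lost the call, 9 gained it and 30 changed sign. The scale of the libraries moved the counts most. With median-of-ratios scaling, 2951 of all genes rose and 2931 fell (median -0.001), 45 members rose (median 0.457), and 27 Mrpl and 18 Mrps genes rose (medians 0.432 and 0.484). With equal library sums, 896 of all genes rose (median -0.399), 5 members rose and 8 fell, 4 Mrpl genes rose and 5 fell with a median turned to -0.019, and 1 Mrps gene rose and 3 fell. Relative to the members, 3 rose and 4 fell. The median of all genes was -0.163 with a pseudocount of 5, -0.127 with no filter and -0.208 over genes averaging 5 FPKM or more. With no filter 2 Mrps genes rose. Without WT 2 and PR3_KO 3 together, where 8.20% of all genes rose and 31.9% fell, 5 members rose and 2 fell, all of them Mrpl genes (5 and 2), and 0 Mrps genes rose.

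Leaving out 1 library at a time, the genes that rose numbered 916 to 1518 over all genes, 4 to 18 over the members, 4 to 11 over the Mrpl genes and 0 to 7 over the Mrps genes. The members that fell numbered 0 to 4, the Mrpl genes 0 to 3 and the Mrps genes 0 to 1, and only leaving out WT 2 gave any. A left-out library also means fewer samples. The replicate numbers were not used as pairs in the main model. Deviations from the genotype mean correlated at 0.068, 0.27 and -0.087 between same-numbered libraries, and PR3_KO 1 correlated best with WT 3, at 0.322. With 3 libraries per genotype these values cannot decide whether the numbers pair the samples. With the number as a replicate block 19 members rose and 0 fell, and 7 Mrps genes rose. In that setting 1550 of the 12388 tested genes rose and 5143 fell.

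Sign changes among named members all concerned genes without a call. With equal library sums Mrpl42 was at -0.127, Mrps36 at -0.11, Mrps18a at -0.013, Mrpl58 at -0.066, Mrpl44 at -0.117, Mrps12 at -0.096, Mrps22 at -0.048 and Mrps34 at -0.105. Relative to the members the same 8 were at -0.129, -0.111, -0.015, -0.067, -0.119, -0.098, -0.05 and -0.107. With median-of-ratios scaling Mrpl52 was at 0.259 and Mrps18c at 0.256. Without WT 2 and PR3_KO 3, Mrpl42 was at -0.068, Mrps36 at -0.094, Mrps12 at -0.104, Mrps22 at -0.008 and Mrps34 at -0.01. With 1 library left out, values ran from -0.107 to 0.16 for Mrpl42, -0.089 to 0.001 for Mrpl52, -0.101 to 0.173 for Mrps36, -0.094 to 0.185 for Mrps12, 0.039 to 0.186 for Mrps22, -0.057 to 0.146 for Mrps34 and -0.085 to 0.042 for Mrps18c. Except where the alternative's construction shows it, the cause was not tested. With 3 libraries per genotype and a median SE of 0.125, the smallest log2 fold change of a member that passed was 0.243 (Mrpl39).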
